A study of Bos taurus with 34 samples.

Results

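The genes described here are 9 ligands and receptors of blood and lymph vessel growth: the vascular endothelial growth factors VEGFA, VEGFB, VEGFC and PGF, their receptors KDR and FLT4, the angiopoietins ANGPT1 and ANGPT2, and the angiopoietin receptor TEK. They were chosen by name, and each was represented by the row of the deposited count table whose RefSeq transcript carried its symbol, the row with the highest mean count where a gene had several. Of the 9 genes, 7 had a row among the 21541 genes matched in the table. No row was matched to PGF, a ligand of the receptor FLT1, or to FLT4, the main receptor of VEGFC, so neither is described. The rows were NM_001316956.1 for VEGFA, XM_024986985.1 for VEGFB, NM_174488.2 for VEGFC, NM_001110000.2 for KDR, NM_001076797.1 for ANGPT1, NM_001098855.1 for ANGPT2 and NM_173964.2 for TEK.

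Endothelial cells, which line vessels, sense VEGF ligands through tyrosine kinase receptors. VEGFA acts mainly through KDR to drive sprouting and permeability, VEGFB binds FLT1, a receptor that also traps VEGFA, and VEGFC acts on lymphatic and some blood endothelium. ANGPT1, made largely by perivascular and stromal cells, activates TEK and stabilises vessels, while ANGPT2, which endothelial cells store and release, can act against ANGPT1 or in its place depending on context. The endometrium, the lining of the uterus, rebuilds its vessels with each cycle.

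RNA was sequenced from the tract of 5 nulliparous Holstein heifers synchronised with a 5-day CIDR-Synch protocol, in which a progesterone insert is placed in the vagina, and killed on day 2 after ovulation. The groups were the ampulla, the wider part of the oviduct, on the ovulatory side (ipsilateral ampulla, 5 heifers) and on the opposite side (contralateral ampulla, 5), the ipsilateral upper horn (4), the contralateral upper horn (5), the ipsilateral mid horn (5), the contralateral mid horn (5) and the uterine body (5). All groups shared the same 5 animals, breed, parity, treatment and day, and the ipsilateral upper horn of heifer 11110 was not analysed here. The labels give no age beyond adult. The series title names the linings, endosalpinx in the oviduct and endometrium in the uterus, and the protocols name homogenised tissue and no sorting of cells, so each library held RNA of every cell type in its piece.

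The 34 libraries held 11619486 to 30412782 counts, with a median of 20610132. Values are CPM, counts relative to the library total scaled by TMM factors, and they compare libraries for 1 gene. Levels of different genes cannot be ranked, since each row counts a single transcript and no transcript length was used. Total counts over all libraries ran from 614 for KDR to 68795 for TEK. A library at 0 says only that no read was counted at its depth. A total of 3 libraries stood apart in earlier results on these data. The contralateral mid horn of heifer 10882 held 454 CPM of KRT5, a keratin of basal epithelial cells, against 0.111 to 40.5 CPM in the other 23 endometrium libraries and 762 to 1681 CPM in the 10 ampulla libraries. The fewest rows with a count were found in heifer 11070's contralateral ampulla, 15773, and in heifer 11033's contralateral upper horn, 16049. For VEGFA another library, the ipsilateral ampulla of heifer 11070, stood apart and is described with that gene.

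The main difference for these genes lay between the oviduct and the uterus. In the ampulla, TEK, ANGPT1 and ANGPT2 were each at under 5% of their endometrial level, KDR was at 19.1%, VEGFC at 73.5% and VEGFB at 57.6%. With the endometrium as the equal-weight mean of upper horn, mid horn and body, 6 of the 7 genes were lower in the ampulla at an adjusted p under 0.05, 0 were higher, and VEGFA did not pass. Over all 17241 rows tested, 64.9% were called, 29.4% as higher and 35.6% as lower, so calls were common in this contrast; the counts were 5062 higher and 6136 lower, and 3654 higher and 7455 lower with scaling by library totals alone. The median log2 fold change was -2.40 over the 7 genes and -0.18 over all rows. All 7 passed the filter on low counts, but VEGFA, KDR and ANGPT1 passed through the endometrium, where 18, 20 and 24 of 24 libraries reached its level, against 3, 1 and 0 of 10 ampulla libraries. For VEGFA and KDR a lower value in the ampulla was thus favoured beforehand, and for ANGPT1 the direction was fixed. In bulk tissue, fewer cells of a type and less RNA per cell cannot be told apart.

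**Figure D1:**
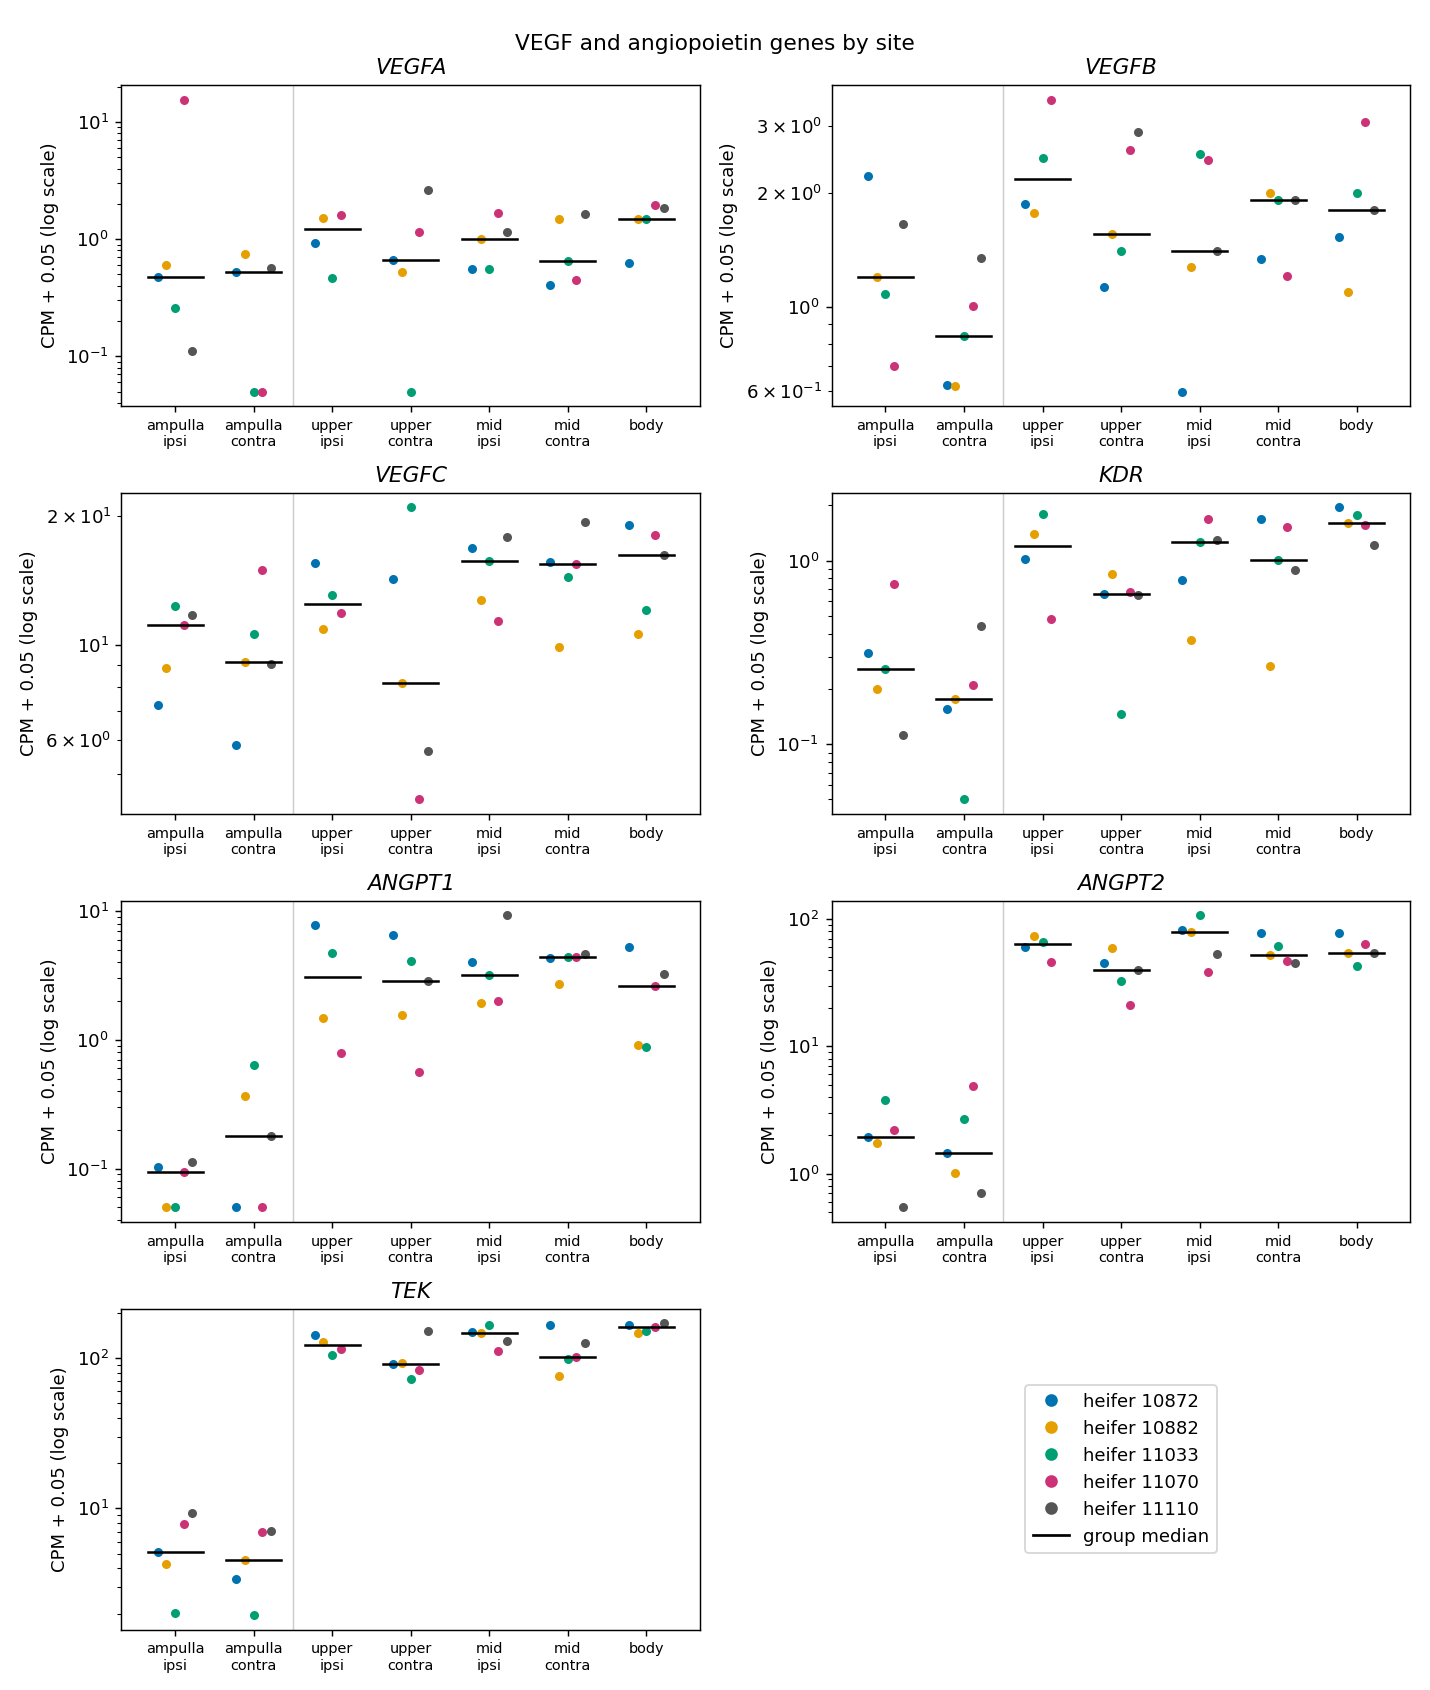
CPM plus 0.05 on a log axis for the 7 genes, 1 panel each; every point is a library, coloured by heifer, and black lines are group medians over the 7 sites. TEK and ANGPT2 show no overlap between the 10 ampulla and the 24 endometrium libraries (share of all rows not computed), and in VEGFA 1 ipsilateral ampulla library stands at 15.5 CPM.

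TEK, the receptor for both angiopoietins, had 1.90 CPM in the lowest, 4.80 in the median and 9.24 in the highest ampulla library, against 72.5, 129 and 171 CPM in the endometrium libraries. The ranges did not overlap. The share of all rows without overlap was not computed, here or for ANGPT2. Means over heifers were 5.20 ± 2.52 CPM in the ampulla, against 133 ± 14.1 CPM in the endometrium (SD, n = 5). The log2 fold change was -4.75 ± 0.21 (SE; edgeR quasi-likelihood test with Benjamini-Hochberg adjustment, adjusted p = 6.91e-19), and TEK was lower in the ampulla in 5 of 5 heifers.

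KDR, the main signalling receptor of VEGFA, had few counts, 614 over all libraries. The lowest, median and highest libraries had 0, 0.155 and 0.693 CPM in the ampulla and 0.0967, 1.07 and 1.90 CPM in the endometrium. The ranges overlapped: 7 of 24 endometrium libraries lay at or below the highest ampulla library. The ampulla value rested on 41 counts over 10 libraries. KDR averaged 0.215 ± 0.127 CPM in the ampulla, against 1.13 ± 0.164 CPM in the endometrium (SD, n = 5 heifers), a log2 fold change of -2.40 ± 0.41 (edgeR, adjusted p = 7.39e-06), with the ampulla lower in 5 of 5 heifers.

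ANGPT2 had 0.493, 1.80 and 4.79 CPM in the lowest, median and highest ampulla library, against 21.0, 54.1 and 107 CPM in the endometrium, without overlap. Heifer means were 2.04 ± 1.24 CPM in the ampulla, against 57.0 ± 9.90 CPM in the endometrium (SD, n = 5). This gave a log2 fold change of -4.85 ± 0.29 (edgeR, adjusted p = 1.64e-15).

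ANGPT1 was close to its limit of detection in the ampulla, with 19 counts in all, 0 counts in 4 of 10 libraries and at most 0.590 CPM. Endometrium libraries had 0.516, 3.15 and 9.22 CPM as lowest, median and highest, so the regions overlapped by a single library each. Heifer means were 0.119 ± 0.113 CPM in the ampulla, against 3.28 ± 1.61 CPM in the endometrium (SD, n = 5), a log2 fold change of -5.10 ± 0.53 (edgeR, adjusted p = 6.81e-10). Both angiopoietins were lower in the ampulla in 5 of 5 heifers.

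The balance of the angiopoietins was compared as the log2 ratio of ANGPT2 to ANGPT1 counts within a library, with 0.5 added to each, which needs no scaling between libraries. It averaged 4.38 ± 1.42 in the ampulla, against 4.37 ± 0.75 in the endometrium (SD, n = 5 heifers). The difference of 0.01, with an SD of 1.44 over heifers, was positive in 3 of 5 (exact sign-flip permutation test over heifers, two-sided, p = 1; the smallest p that 5 heifers allow is 0.063). Single ampulla libraries spread from 1.49 to 7.18, since ANGPT1 had 0 to 9 counts there, and the sign of the difference turned with the added count: it was -0.51 with 1 in place of 0.5. The ratio in the ampulla was therefore not resolved at this depth.

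VEGFB and VEGFC, unlike the angiopoietins, were lower in the ampulla by less than 2-fold. VEGFB had 0.571, 0.997 and 2.16 CPM in the lowest, median and highest ampulla library and 0.549, 1.78 and 3.47 CPM in the endometrium, and averaged 1.08 ± 0.304 CPM in the ampulla, against 1.87 ± 0.533 CPM in the endometrium (SD, n = 5 heifers). The ranges overlapped widely. On the log2 scale VEGFB fell by 0.77 ± 0.25 (edgeR, adjusted p = 0.00694), lower in 4 of 5 heifers, and the call was lost without heifer 11070 (adjusted p = 0.0541).

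VEGFC had 5.80, 9.81 and 14.9 CPM in the ampulla and 4.32, 14.3 and 20.9 CPM in the endometrium as lowest, median and highest. Heifer means were 10.1 ± 2.48 CPM in the ampulla, against 13.7 ± 2.28 CPM in the endometrium (SD, n = 5), with the ampulla lower in 5 of 5 heifers. The log2 fold change of -0.44 ± 0.19 (edgeR, adjusted p = 0.0422) was near the threshold. It missed it without any 1 of heifers 10872, 10882, 11033 and 11110, at adjusted p of 0.186, 0.0679, 0.0512 and 0.0526.

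VEGFA did not pass the test between ampulla and endometrium, and a single library decided its value. Ampulla libraries had 0 CPM in the lowest, 0.446 in the median and 15.5 in the highest, against 0, 1.03 and 2.56 CPM in the endometrium. Heifer means were 1.84 ± 3.31 CPM in the ampulla, against 1.17 ± 0.530 CPM in the endometrium (SD, n = 5), yet VEGFA was lower in the ampulla in 4 of 5 heifers. Its log2 fold change was -0.39 ± 0.55 (edgeR, adjusted p = 0.544), with a 95% interval of -1.47 to 0.69. The highest value, from the ipsilateral ampulla of heifer 11070, rested on 358 counts, 87.3% of all VEGFA counts in the ampulla, while the other 9 ampulla libraries had at most 0.697 CPM. Without that library, an alternative added after its value was seen, VEGFA was lower in the ampulla by a log2 fold change of -1.68 (edgeR, adjusted p = 0.00271).

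In the ipsilateral ampulla of heifer 11070 VEGFA stood 6.07-fold above the highest of the other 33 libraries. Of the 17241 rows tested, 2 stood at least as far above the other 33 there: VEGFA itself and PFKFB3, an enzyme that drives glycolysis and a known target of the hypoxia response, at 16.1 CPM against at most 2.60 elsewhere. Among 16 genes of a list of hypoxia regulators and targets, 8 had their highest ampulla value in that library, against 21.8% of all rows tested. The library was singled out by its VEGFA value, so this describes 1 library, and a cause was not tested. The 8 included ARNT, EGLN1 and EGLN2, regulators of that response. DDIT4, a stress-induced inhibitor of mTOR signalling, had 929 CPM there and 182 to 420 CPM in the other 9 ampulla libraries. SLC2A1, the glucose transporter GLUT1, had 256 CPM there and 217 to 331 CPM in the other 9, within their range. BNIP3, PGK1, ENO1 and EGLN3, of the same list, also lay within the range of the other 9. Of the 8 highest there, LDHA had 0.909 CPM and ALDOA 0.606 CPM. EPAS1 had 25.2 CPM there, against at most 24.1 CPM in the other 9. That library also had the most rows with a count of any ampulla library, 24241 against 15773 to 21721 in the other 9.

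VEGFA ran with the number of rows detected in a library. Over the 10 ampulla libraries Pearson's r between log2 of VEGFA CPM plus 0.1 and rows with a count was 0.844 and Spearman's rho 0.851, and r was 0.772 without the 2 libraries farthest from the median number of rows. Over the 24 endometrium libraries r was 0.774, rho was 0.584, and r without the 2 farthest was 0.553. Libraries share heifers and regions, so these are descriptions. For the other 6 genes r lay between -0.434 and 0.478 in the ampulla and between -0.433 and 0.505 in the endometrium. VEGFA had 0 counts in the contralateral ampulla of heifers 11033 and 11070 and in the contralateral upper horn of heifer 11033, which include both libraries with the fewest rows. The part of library complexity in the VEGFA values was not tested.

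**Figure D2:**
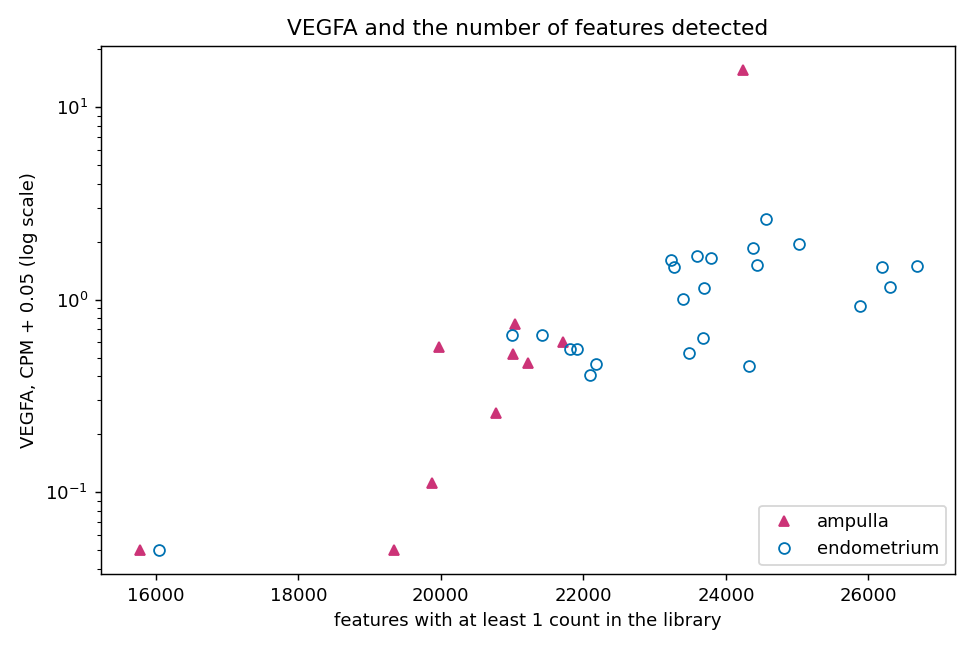
VEGFA in CPM plus 0.05 (log axis) against the number of rows with at least 1 count in each library; filled triangles are the 10 ampulla libraries and open circles the 24 endometrium libraries. The 2 libraries with the fewest rows, 15773 and 16049, have no VEGFA count, and the ampulla library at 15.5 CPM has the most rows of the 10, 24241.

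Most tested partners in the same signalling system were lower in the ampulla as well, where 35.6% of all rows were lower and 29.4% higher. Of a list of 14 partners, 13 had a row and 12 were tested; 10 were lower, 1 was higher and 1 did not pass, with a median log2 fold change of -2.90. TIE1, the receptor that pairs with TEK, averaged 0.277 ± 0.153 CPM in the ampulla, against 142 ± 18.6 CPM in the endometrium (log2 fold change -9.00 ± 0.27). SVEP1, a matrix protein and TIE1 ligand, fell by 8.05 ± 0.42 on the log2 scale. FLT1, the receptor of VEGFA, VEGFB and PGF, fell by 5.82 ± 0.19 to 1.29 ± 0.272 CPM in the ampulla, against 75.4 ± 14.1 CPM in the endometrium. PTPRB, the endothelial phosphatase that restrains TEK, had 3 counts in the ampulla, against 1332 in the endometrium, a ratio of endometrium to ampulla of 149 (95% exact counting interval 50.9 to 724). ANGPT4, the third angiopoietin ligand of TEK, was lower at -4.12 on the log2 scale, and NRP2, a co-receptor for VEGFC, at -2.87. VEGFD, the other lymphatic ligand, was higher: 0.961 ± 0.506 CPM in the ampulla, against 0.283 ± 0.169 CPM in the endometrium (SD, n = 5 heifers; log2 fold change 1.92 ± 0.39, edgeR adjusted p = 8.6e-05). RCAN1, a target of VEGF signalling in endothelium, did not pass (log2 fold change -0.75, edgeR adjusted p = 0.0538).

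**Figure D3:**
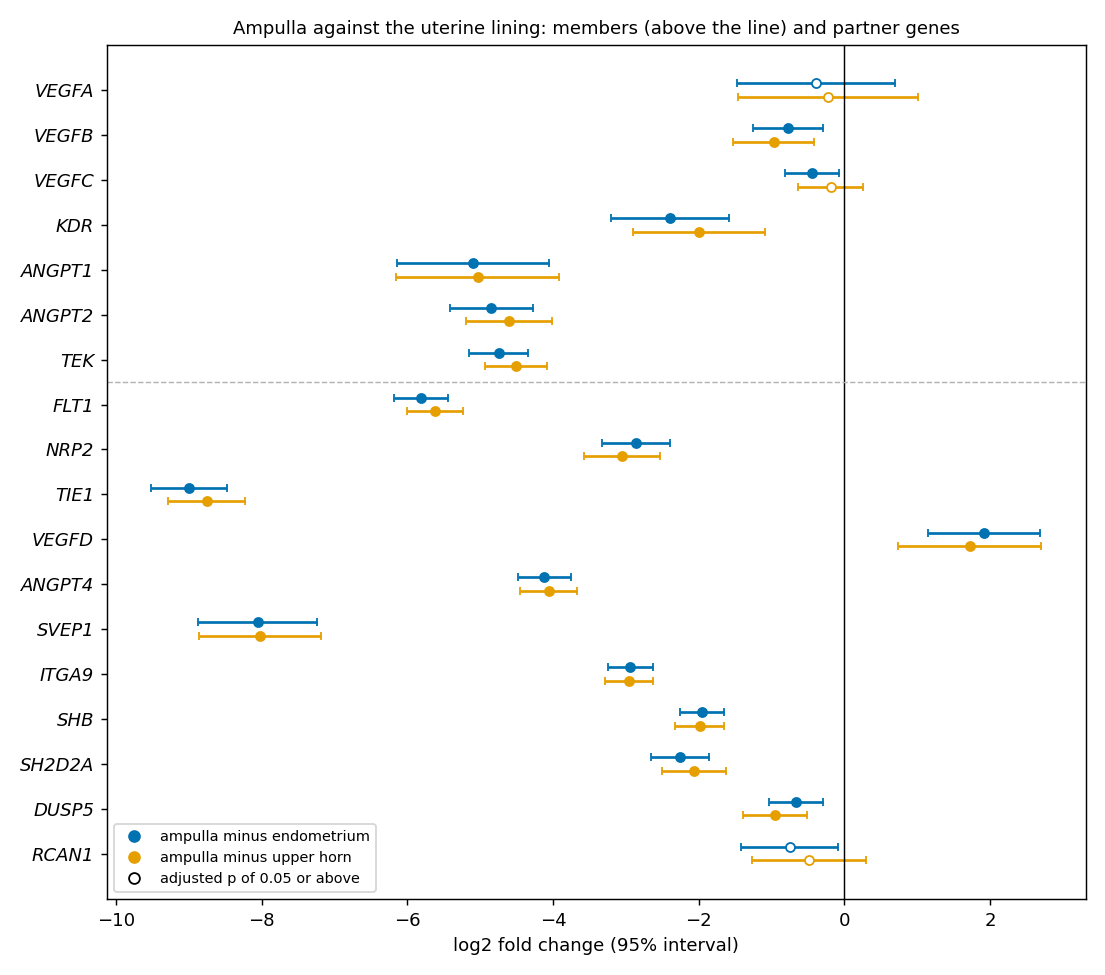
Log2 fold changes with 95% intervals for the 7 genes (above the dashed line) and 11 tested partners, as ampulla minus endometrium and ampulla minus upper horn; open points did not pass an adjusted p of 0.05, and PTPRB is left out because of its 3 ampulla counts. VEGFD is the only filled point right of 0, and TIE1 lies farther left, at -9.00, than TEK at -4.75.

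TEK fell less than TIE1. The log2 ratio of TEK to TIE1 counts within a library, with 0.5 added to each, was looked at after both values were seen and is given without a test. It lay between 2.88 and 7.43 in the ampulla libraries and between -0.73 and 0.35 in the endometrium libraries. TIE1 had 0 counts in 2 of 10 ampulla libraries, so the upper end depended on the added count. As a share of its endometrial mean, the ampulla held 3.90% of TEK, 0.196% of TIE1 and 0.110% of ROBO4, a guidance receptor of endothelium. Other endothelium markers lay on both sides of TEK. FLT1 was at 1.71%, SOX18 at 0.202%, ESAM at 0.0884% and PLVAP at 0.0880%, but SOX17 at 115%. NOS3 had 0.328 CPM in the ampulla, against 3.22 CPM in the endometrium, and S1PR1 1.67 against 3.55 CPM. ANGPT2 at 3.58% and ANGPT4 at 5.52% were in the range of TEK. The TEK signal in the ampulla rested on 908 counts, with at least 29 in each library.

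Genes of sprouting were mixed, with 35.6% of all rows lower and 29.4% higher in the same contrast. Of 14 tested genes of tip and stalk cells, the leading and trailing cells of a sprout, 10 were lower in the ampulla, 2 were higher and 2 did not pass (median -0.86). APLNR, the apelin receptor, was at -7.26 ± 0.34, the basement membrane protein NID2 at -6.50 ± 0.25, ENG, a TGF-beta co-receptor of endothelium, at -5.22 ± 0.26 and ANGPTL4 at -4.80 ± 0.23. ESM1, a tip cell proteoglycan that VEGFA induces in endothelium, was higher in the ampulla, with 53.9 ± 29.8 CPM there and 10.1 ± 3.33 CPM in the endometrium (2.37 ± 0.25, edgeR adjusted p = 7.24e-10), and the Notch target HES1 was higher by 0.46. Of 9 tested genes of a list of inhibitors of vessel growth, 8 were lower in the ampulla and 0 higher (median -3.80). The largest falls were those of SERPINF1 at -6.20 ± 0.33, VASH2 at -5.47 ± 0.38, VASH1 at -5.40 ± 0.35 and the collagen chain COL4A3 at -4.62 ± 0.40. VASH2 is not an established inhibitor, so the list does not hold inhibitors alone. Of 16 tested hypoxia genes, 7 were higher, 2 were lower and 7 did not pass (median 0.61), while 64.9% of all rows were called. The 2 lower ones were transcription factor subunits of that response, EPAS1 at -4.32 ± 0.33 and ARNT at -1.36 ± 0.25. MXI1, a MYC antagonist, was higher by 1.18 ± 0.37 and the oxygen sensor EGLN3 by 0.85 ± 0.16.

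Markers of vessel and stromal cells were lower in the ampulla too, where 35.6% of all rows were lower. Of 12 tested endothelium markers, 11 were lower in the ampulla (median -7.98), and 6 of the 17 with a row had 0 counts in all 10 ampulla libraries. CLDN5, the endothelial claudin, was at least 4097-fold lower, taking 3 counts over the ampulla libraries as the floor. PLVAP, of fenestrated endothelium, was at -10.21 ± 0.31 and ROBO4 at -9.76 ± 0.32, and the adhesion molecule ESAM had 0.0773 CPM in the ampulla, against 87.5 CPM in the endometrium. Of these 6, PECAM1, CDH5, EGFL7 and ERG had only 2, 12, 8 and 27 counts in the 24 endometrium libraries and were not tested, so their 0 says little; the others were CLDN5 and VWF, which codes for von Willebrand factor and had 188 endometrium counts. Summed over the 17 markers, the ampulla libraries had 209 to 574 CPM and the endometrium libraries 968 to 1550 CPM. SOX17, an endothelial factor also known from epithelium of the human oviduct, made up most of the ampulla sum and did not pass (0.19; 379 CPM in the ampulla, 330 CPM in the endometrium). Without SOX17, a choice made after seeing the values, the sums were 3.04 to 7.40 CPM in the ampulla and 585 to 1267 CPM in the endometrium.

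Of 8 tested pericyte markers, 7 were lower in the ampulla (median -3.87): KCNJ8 had 0 counts and was at least 2670-fold lower, RGS5 was at -10.07 ± 0.38 and MCAM at -5.02 ± 0.23. For this list and those that follow, 35.6% of all rows were lower in the same contrast. HIGD1B had 3 ampulla counts, a ratio of endometrium to ampulla of 66.5 (95% exact counting interval 22.6 to 323). The 11 pericyte markers summed to 61.3 to 401 CPM in the ampulla and 548 to 1781 CPM in the endometrium. On average NOTCH3 made up most of the ampulla sum, with 211 CPM there and 392 CPM in the endometrium. CSPG4 followed with 40.1 and 106 CPM, while RGS5 had 0.265 CPM in the ampulla, against 296 CPM in the endometrium. All 13 tested stroma markers were lower (median -9.61), with sums of 45.1 to 134 CPM in the ampulla and 38570 to 87590 CPM in the endometrium. Among tested markers, 4 of stroma, 3 of smooth muscle, 2 of endothelium and 1 of pericytes had 0 ampulla counts. These passed the filter through the endometrium alone, so their direction was fixed beforehand. HOXA10 and HIGD1B, with 1 and 3 ampulla counts, passed in the same way. The filter asked for 0.485 CPM, by library totals, in at least 4 libraries. The same therefore held for ESAM, PLVAP, HOXA11 and PTPRB, whose highest ampulla values were 0.260, 0.388, 0.262 and 0.127 CPM. TIE1 and ROBO4, at most 0.550 and 0.634 CPM in the ampulla, were near that level. DCN, a stromal proteoglycan, had 0 ampulla counts and was at least 2510-fold lower. HOXA10, a uterine stromal homeobox gene, had 1 ampulla count, COL6A1 was at -12.76 ± 0.37 and HOXA11 at -13.31 ± 0.46 on 6 ampulla counts. Smooth muscle markers were lower in 8 of 8 (sums of 8.31 to 23.0 CPM in the ampulla and 243 to 3702 CPM in the endometrium), led by LMOD1 at -8.98 ± 0.32 and CNN1 at -8.16 ± 0.37. Leukocyte markers were lower in 7 of 8 (35.3 to 71.4 CPM in the ampulla and 165 to 560 CPM in the endometrium), led by GZMB at -4.82 ± 0.43.

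Of 7 tested lymphatic markers, 4 were lower and 2 higher in the ampulla, against 35.6% and 29.4% of all rows. Their sums were 92.5 to 410 CPM in the ampulla and 61.6 to 428 CPM in the endometrium. FOXC2, a factor of lymphatic valves, was at -3.64 ± 0.38 and LYVE1, a hyaluronan receptor, at -1.79 ± 0.30, while CCBE1, which helps activate VEGFC, was higher by 0.46 (edgeR, adjusted p = 0.0213). Epithelium markers were higher in the ampulla in 6 of 9 and lower in 2, the claudin CLDN4 at -1.59 ± 0.22 and the transcription factor ELF3 at -1.59 ± 0.47, with 1 not called; their sums were 5554 to 7411 CPM in the ampulla, against 935 to 4025 CPM in the endometrium. Ciliated cell markers were higher in 10 of 11 (2216 to 2629 CPM in the ampulla and 161 to 844 CPM in the endometrium). KRT18, an epithelial keratin, was at 2.92 ± 0.16 and TEKT1, a tektin of cilia, at 3.57 ± 0.19. The part of cell content in the differences of TEK, ANGPT1, ANGPT2 and KDR was not tested.

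Against the upper horn, the uterine site nearest the oviduct, the picture was the same for 5 of the 7 genes, all lower in the ampulla, with 55.2% of all rows called (24.9% higher, 30.4% lower). This contrast shares its ampulla libraries with the previous one. TEK was at -4.51 ± 0.22, ANGPT2 at -4.61 ± 0.30, ANGPT1 at -5.04 ± 0.57 and VEGFB at -0.97 ± 0.29 (edgeR, adjusted p of 8.61e-18, 2.7e-14, 5.49e-09 and 0.00465). KDR was 3.99-fold lower (edgeR, adjusted p = 0.00051). VEGFC was not called at -0.19 ± 0.23 (interval -0.64 to 0.26), with 10.1 ± 2.48 CPM in the ampulla and 10.99 ± 4.75 CPM in the upper horn (SD, n = 5 heifers). VEGFA was at -0.22 ± 0.63 (edgeR, adjusted p = 0.785). Without the ipsilateral ampulla of heifer 11070 it was at -1.53 (edgeR, adjusted p = 0.0142).

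Within the uterus none of the 7 genes was called between upper horn, mid horn and body. The background was low in each contrast: 0.0174% of rows between upper and mid horn (0.0116% higher), 0.0232% between upper horn and body, and 4.45% between mid horn and body (0.528% higher, 3.92% lower), or 3, 4 and 767 rows. At an unadjusted p under 0.05 these were 1049, 1927 and 4833 rows. The DESeq2 Wald test called 23, 12 and 2714 rows and also none of the 7 genes. Differences within the intervals below were not resolved with 5 heifers.

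TEK had 72.5, 104 and 152 CPM in the lowest, median and highest upper horn library and 76.2, 128 and 167 CPM in the mid horn. In the body its 5 libraries had 167 CPM in heifer 10872, 147 in 10882, 151 in 11033, 161 in 11070 and 171 in 11110. The body exceeded the mean of a heifer's upper horn and of its mid horn in 5 of 5 heifers, though library ranges overlapped. The log2 fold change of upper horn against body was -0.52 ± 0.22 (interval -0.95 to -0.08; edgeR, unadjusted p = 0.0279, adjusted p = 0.428) and that of mid horn against body -0.33 ± 0.22 (adjusted p = 0.333).

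KDR ordered the sites in the same way. It averaged 0.783 ± 0.222 CPM in the upper horn, 1.03 ± 0.469 in the mid horn and 1.57 ± 0.273 in the body (SD, n = 5 heifers). The body exceeded the upper horn in 5 of 5 heifers and the mid horn in 4 of 5. On the log2 scale upper horn against body was at -0.95 ± 0.48 (interval -1.89 to -0.02; edgeR, adjusted p = 0.453) and that of mid horn against body -0.71 ± 0.46 (adjusted p = 0.321). Endothelium markers without SOX17 summed to a median of 860 CPM in the ipsilateral and 915 in the contralateral upper horn, 1046 in the ipsilateral and 796 in the contralateral mid horn, and 1022 CPM in the body. The part of vessel content in the site values of TEK and KDR was not tested.

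For the ligands the order of sites differed from gene to gene, and no step between neighbouring uterine groups in the order of means exceeded their joint spread, the root of the summed squared SDs. ANGPT1 averaged 3.28 ± 2.57 CPM in the upper horn, 4.04 ± 1.75 in the mid horn and 2.52 ± 1.82 in the body, where heifers ranged from 0.834 to 5.20 CPM. ANGPT2 averaged 48.2 ± 12.6 CPM in the upper horn, 64.2 ± 18.3 in the mid horn and 58.5 ± 13.3 in the body. VEGFC averaged 10.99 ± 4.75, 14.9 ± 2.76 and 15.2 ± 3.72 CPM, VEGFB 2.16 ± 0.716, 1.61 ± 0.451 and 1.85 ± 0.735 CPM, and VEGFA 1.16 ± 0.879, 0.907 ± 0.399 and 1.43 ± 0.518 CPM in upper horn, mid horn and body (SD, n = 5 heifers each). Fold changes of upper against mid horn ran from -0.46 for ANGPT1 to 0.38 for VEGFB. Of the steps down the order of all 7 groups, those beyond the joint spread set an ampulla group below a uterine one: contralateral ampulla below body for ANGPT1, contralateral ampulla below contralateral upper horn for ANGPT2, and ipsilateral ampulla below contralateral upper horn for TEK. For VEGFA, VEGFB, VEGFC and KDR no neighbouring groups differed beyond it.

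The log2 ratio of ANGPT2 to ANGPT1 was 4.23 ± 1.23 in the upper horn and 4.84 ± 0.91 in the body (SD, n = 5 heifers). The difference was -0.62 with an SD of 1.15 over heifers and was positive in 1 of 5 (exact sign-flip permutation test, two-sided, p = 0.3125; smallest possible 0.063). Single endometrium libraries lay between 2.52 and 5.95.

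In the other gene lists, calls within the uterus were made between mid horn and body. EGLN2, an oxygen sensor, was lower in the mid horn (-1.18 ± 0.28, edgeR adjusted p = 0.0408), as was TAGLN, a smooth muscle protein (-1.99 ± 0.55, adjusted p = 0.0454), and the epithelial genes KRT8 (0.93 ± 0.22, adjusted p = 0.0408), KRT18 (0.88 ± 0.24, adjusted p = 0.0444) and CLDN4 (1.09 ± 0.30, adjusted p = 0.0444) were higher. Of 12 tested partner genes and 12 tested endothelium markers 0 were called in that contrast. The count of 767 rows called between mid horn and body fell to 1 without the contralateral mid horn of heifer 10882.

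The sides asked whether the tract next to the ovulating ovary differs from the opposite one. None of the 7 genes was called in the ampulla, the upper horn or the mid horn, where 0.0174%, 0.0058% and 0% of rows were called, or 3, 1 and 0. At an unadjusted p under 0.05 these were 1250, 1188 and 513 rows, and the DESeq2 Wald test called 17, 22 and 21.

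**Figure D4:**
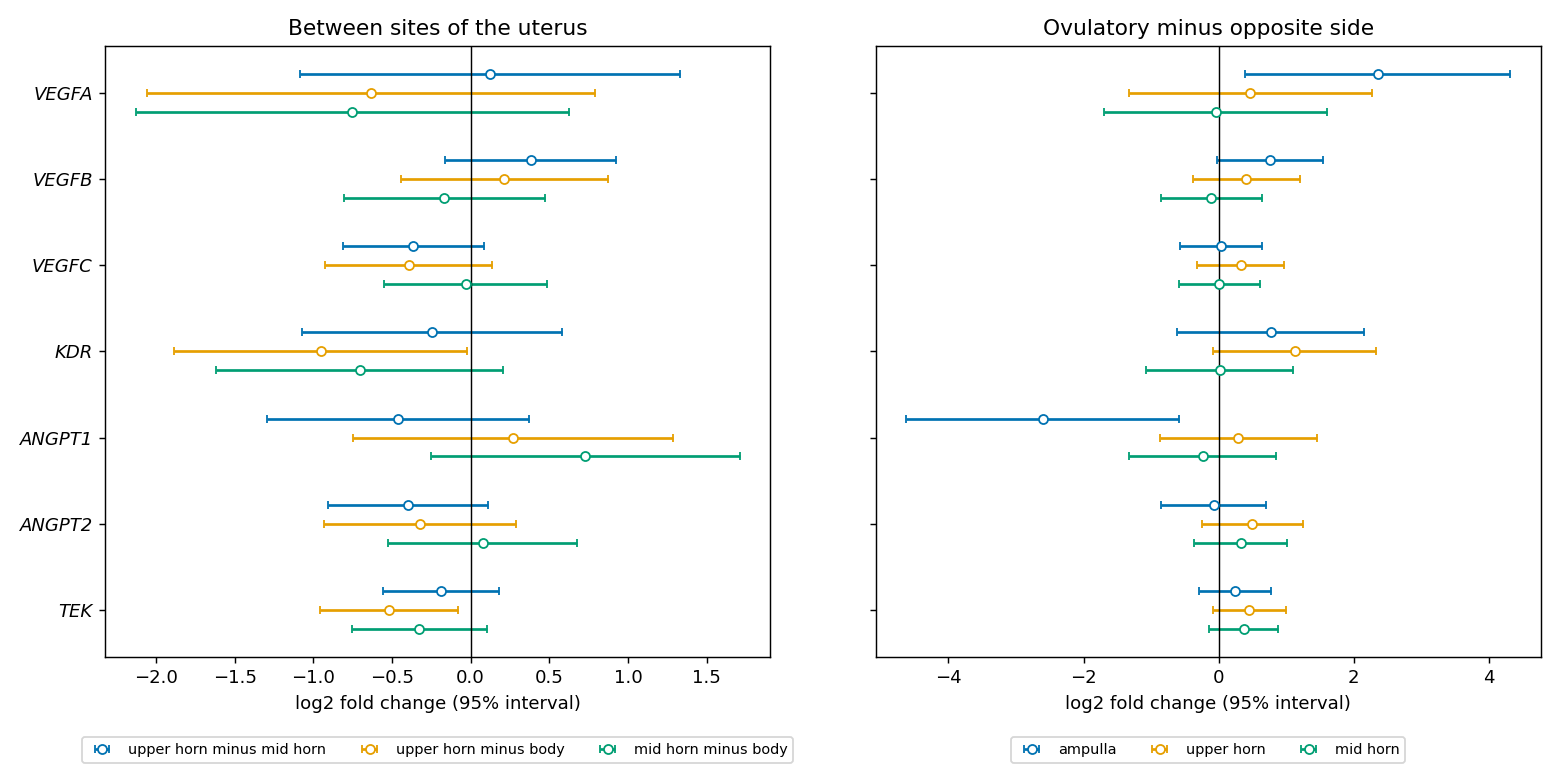
Log2 fold changes with 95% intervals for the 7 genes between sites of the uterus (left) and between the ipsilateral and contralateral side at 3 sites (right); no point passed an adjusted p of 0.05. In the upper horn all 7 values are positive, from 0.29 to 1.12, and the widest side intervals are those of VEGFA and ANGPT1 in the ampulla.

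In the ampulla VEGFA had 0.421, 0.550, 0.207, 15.5 and 0.0616 CPM on the ipsilateral side of heifers 10872, 10882, 11033, 11070 and 11110, against 0.471, 0.697, 0, 0 and 0.517 CPM on their contralateral side. The ipsilateral value was the higher one in 2 of 5 heifers. On the log2 scale the difference was 2.35 (95% interval 0.39 to 4.32; edgeR, unadjusted p = 0.0255, adjusted p = 0.637), and it was -0.21 without heifer 11070.

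ANGPT1 in the ampulla had 1, 0, 0, 1 and 1 counts on the ipsilateral side in the same order of heifers, and 0, 5, 9, 0 and 2 on the contralateral side. The fold change of -2.61 ± 1.03 (edgeR, unadjusted p = 0.0166, adjusted p = 0.62) rested on these 19 counts and ran from -3.18 to -1.49 with a heifer left out. The ipsilateral side was higher in 2 of 5 heifers.

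In the upper horn the fitted side difference was above 0 for all 7 genes. KDR had 0.967, 1.34, 1.75 and 0.433 CPM on the ipsilateral side of heifers 10872, 10882, 11033 and 11070, against 0.608, 0.795, 0.0967 and 0.627 CPM on their contralateral side and 0.604 CPM in the contralateral horn of heifer 11110. Its difference was 1.12 ± 0.62 (interval -0.08 to 2.33; edgeR, adjusted p = 0.738), with the ipsilateral side higher in 3 of 4 heifers. TEK had 143, 129, 104 and 115 CPM on the ipsilateral side of the same 4 heifers, against 90.6, 92.9, 72.5 and 83.6 CPM contralaterally and 152 CPM in the contralateral horn of heifer 11110. TEK was higher ipsilaterally in 4 of 4 heifers, at 0.45 ± 0.28 (interval -0.09 to 0.99; edgeR, adjusted p = 0.76).

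ANGPT2 in the upper horn had 60.5, 73.4, 66.4 and 46.1 CPM ipsilaterally in these 4 heifers, against 44.7, 58.8, 32.8 and 21.0 CPM contralaterally and 39.4 CPM in heifer 11110. It was higher ipsilaterally in 4 of 4 heifers, at 0.50 ± 0.38 (interval -0.25 to 1.24; edgeR, adjusted p = 0.82). VEGFB and VEGFA were also higher ipsilaterally in 4 of 4 heifers, VEGFC and ANGPT1 in 3 of 4. With 4 heifers on 1 side none of these differences passed the test, and the genes share the same libraries, so their common sign is not 7 separate observations. The median side difference there was 0.45 over the 7 genes and -0.04 over all rows. Other lists had these medians in the same contrast, with 0 genes called in each: 1.47 for smooth muscle markers, 0.84 for inhibitors of vessel growth, 0.46 for partners, 0.35 for stroma markers, 0.38 for lymphatic markers, 0.24 for pericyte markers, 0.07 for endothelium markers, 0.02 for epithelium markers and -0.24 for ciliated cell markers. Smooth muscle markers summed to 636 to 3702 CPM in the ipsilateral upper horn, against 243 to 1316 CPM in the contralateral one, and endothelium markers without SOX17 to 743 to 961 CPM, against 608 to 1267 CPM. The part of cell content in the side values was not tested.

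In the mid horn the side differences ran from -0.24 for ANGPT1 to 0.37 for TEK. The test of whether the side difference in the ampulla differed from that in the horns called 0 of the 7 genes and 0% of all rows (918 rows at an unadjusted p under 0.05; 7 by DESeq2). VEGFA was at 2.14 ± 1.16 (edgeR, adjusted p = 0.939) and ANGPT1 at -2.63 ± 1.10 (edgeR, adjusted p = 0.903).

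The genes most like each member across libraries were found by Pearson's r of log2 CPM. Over all 34 libraries, r mostly reflects the step from uterus to ampulla, so values over the 24 endometrium libraries are given beside it. TEK was most like MMRN2, an endothelial matrix glycoprotein (r = 0.984), ESAM, an endothelial adhesion molecule (0.984), and EXOC3L2 (0.982), and within the endometrium like MMRN2 (0.891), FLT1 (0.873) and UACA (0.847). ANGPT2 was most like COLEC12, a scavenger receptor (0.982), IGSF1 (0.975) and KIF26A (0.973), and within the endometrium like RAB12 (0.868), MAN1A1 (0.862) and CORO1C (0.861). ANGPT1 was most like NOG, an inhibitor of BMP signals (0.950), TMEM37 (0.941) and SLC35D3 (0.936), and within the endometrium like TMEM37 (0.855), TMEM203 (0.844) and CYP2C90 (0.843). TMEM37 and MMRN2 thus appeared in both sets of their gene.

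KDR was most like LRRC24 (0.836), HIP1R (0.827) and PTPN14 (0.824), and within the endometrium like LRRC24 (0.779), ZFPM1 (0.758) and RHOG2 (0.750). VEGFA was most like PFKFB3 (0.871), MTMR3 (0.850) and WDR37 (0.842), and within the endometrium like UBP1 (0.913), WDR37 (0.910) and OXNAD1 (0.904). VEGFB was most like TNFSF18 (0.709), UCN (0.704) and GJA10 (0.703), and within the endometrium like AKT2, a kinase of insulin signalling (0.748), TMEM63A (0.715) and MDFI (0.706). VEGFC was most like FOXP2 (0.679), PPP1R14A (0.677) and DNASE1L1 (0.677), and within the endometrium like ADAM19 (0.810), PALMD (0.789) and SPARC, a matrix protein (0.780).

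Among the members, ANGPT2 and TEK had r = 0.932 over 34 libraries and 0.575 within the endometrium, and KDR and TEK 0.778 and 0.571. VEGFC and ANGPT1 had 0.537 over all libraries and 0.646 within the endometrium. VEGFA and KDR, ligand and receptor, had 0.528 and 0.271. These libraries come from 5 heifers and share their regions, so the values are descriptions.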

How the data were processed

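The authors deposited 1 table of raw read counts, whole numbers per annotated transcript and library, per the file itself. Tissue was bead-homogenised, total RNA was purified on columns and libraries were made with a directional kit, per the labels' protocols. The submitters' processing notes name HTSeq, SAMtools, STAR 2.7.9a and Cutadapt without roles; how reads were counted, on which strand, annotation and build is not given in the sources used here. Of 38568 rows, 26349, with 91.7% of counts, were matched to genes through a RefSeq table of assembly ARS-UCD2.0, used for names only; 12219 were not. A read shared by transcripts of a gene may have been lost: VEGFA has 5 annotated transcripts, ANGPT1 3, VEGFB 2, the other members with a row 1.

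Counts were fitted in edgeR 4.0.16 (R 4.3.3): TMM (factors 0.476 to 1.50), filterByExpr (17241 rows), robust quasi-likelihood F test, group and heifer as terms, all 34 libraries, 9 contrasts, Benjamini-Hochberg within each, threshold 0.05. By the labels the sites come from the same 5 heifers, hence the heifer term; deviations from group means correlated with a median of 0.207 over 99 same-heifer pairs and -0.0539 over 396 other pairs. Heifers are the replicates. SE is the fold change over the root of F. Bounds use 3 counts; they and intervals on counts cover counting error only. Scripts were tested on simulated data. Alternatives were DESeq2 1.42.0, its size factors, no filter, no heifer term, library totals, summed rows, and heifers or libraries left out. Members and lists were chosen with earlier results of these data known. Named list genes are up to 4 called with the largest fold change per list, any called within the uterus or between sides, and 3 most alike per member. VEGFD, NRP2, ANGPT4, RCAN1, ESM1, HES1, CCBE1, DDIT4, SLC2A1, SOX17, PECAM1, CDH5, VWF, EGFL7, ERG, ELF3 and KRT5 were named after their values were seen. So were SOX18, NOS3, S1PR1, BNIP3, PGK1, ENO1, LDHA, ALDOA, EGLN1, PDPN, NOTCH3 and CSPG4.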

Additional observations from a re-analysis of the deposited data

Results flagged for a closer look

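In 5 of 49 groups of 4 or 5 libraries the highest or lowest library lay far from the others by Dixon's ratio; chance gives about 1 in 20. VEGFA stood at 15.5 CPM in the ipsilateral ampulla of heifer 11070, with the other 4 libraries at 0.0616 to 0.550 CPM. ANGPT1 was at 9.22 CPM in the ipsilateral mid horn of heifer 11110, with the others at 1.87 to 3.98 CPM. ANGPT1 was at 2.68 CPM in the contralateral mid horn of heifer 10882, the library with KRT5 at 454 CPM, with the others at 4.27 to 4.58 CPM. KDR was at 0.0967 CPM, a single count, in the contralateral upper horn of heifer 11033, the library with 16049 rows detected, with the others at 0.604 to 0.795 CPM. TEK was at 152 CPM in the contralateral upper horn of heifer 11110, whose ipsilateral horn was not analysed here, with the others at 72.5 to 92.9 CPM.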

How the results depend on the processing

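Members called numbered 5 or 6 when each heifer was left out between ampulla and endometrium and likewise against the upper horn, and 7 and 6 without the ipsilateral ampulla of heifer 11070. TEK, ANGPT1, ANGPT2 and KDR stayed lower and called under every alternative in both contrasts. In the settings with a filter, that direction was favoured beforehand for ANGPT1 and KDR. Scaling moved the median of all rows between ampulla and endometrium, -0.18 with TMM, to -0.27 with DESeq2 size factors and -0.48 with library totals, with which 3654 rows were higher and 7455 lower; the member directions held. VEGFA against the upper horn changed sign with no replicate block (0.08), ran from -1.29 to 0.23 over heifers left out and was -1.53 without the ipsilateral ampulla of heifer 11070; VEGFC ran from -0.43 to 0.01. With heifers left out, VEGFA between ampulla sides ran from -0.21 to 3.12, its interaction from -0.27 to 2.97, ANGPT1 between ampulla sides from -3.18 to -1.49, its interaction from -3.39 to -1.53 and ANGPT1 between mid horn sides from -0.66 to 0.04. VEGFA between ampulla sides was called with no filter (2.36, edgeR adjusted p = 0.0463; 1 member called), and its interaction was -0.2 without the 1 library. The ANGPT2 to ANGPT1 ratio between ampulla and endometrium ran from -0.37 to 0.41 over heifers left out and was -0.03 without the contralateral mid horn of heifer 10882, -0.24 without the 3 libraries and -0.51 with 1 added; between upper horn and body it ran from -1.01 to -0.22.

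The numbers of rows called within the uterus and between sides depended on the setting, and the cause was not tested. Between upper and mid horn there were 23 with DESeq2, 207 with no filter, 1 with no replicate block and 0 to 2 with a heifer left out; between upper horn and body 12, 150 and, with a heifer left out, 2 to 4, and 7 from endometrium libraries alone. Between mid horn and body there were 1276 with size factors, 2714 with DESeq2, 2057 with no filter, 1 with no replicate block, 0 to 1835 with a heifer left out, 1228 without the 3 libraries, 1 without the contralateral mid horn of 10882 and 2064 from endometrium libraries alone. Between ampulla sides there were 17, 150 and 1 with DESeq2, no filter and no replicate block, 0 to 4 with a heifer left out, 5 with library totals and 0 from ampulla libraries alone. Between upper horn sides there were 22, 173 and 0 with DESeq2, no filter and no replicate block, 0 to 8 with a heifer left out, 0 without the 3 libraries, 3 without the ipsilateral ampulla of 11070 and 7 from endometrium libraries alone; between mid horn sides 21 and 140 with DESeq2 and no filter, and for the interaction 7, 116 and, without that ampulla library, 2. Alternatives without that ampulla library, with library totals, or with 1 region alone were chosen after seeing the data. Depth limits VEGFA, KDR and ANGPT1 in the ampulla, with 410, 41 and 19 counts.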
